A study of Mus musculus with 12 samples.

Results

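The genes described here are the fibroblast growth factor gene Fgf9, 3 genes for FGF receptors (Fgfr1, Fgfr2 and Fgfr3) and 6 genes that FGF signalling is known to induce (Spry1, Spry2, Spry4, Dusp6, Etv4 and Etv5). They were taken by name, with every probe set annotated to 1 of them alone, which gave 23 probe sets for the 10 genes out of 44238 probe sets tested for the whole series. Signals were read on Affymetrix arrays from pools of supporting cells of the mouse embryonic gonad, the somatic lineage that becomes Sertoli cells in the testis and granulosa cells in the ovary. The 4 groups, of 3 pools each, were XY and XX cells at embryonic day 11.5 (E11.5) and XY and XX cells at E12.5. All 4 came from 1 transgenic FVB.Cg line, which carries Tg(Tyr)3412ARpw as well as Tg(Sry-EGFP)92EI, and were isolated by flow cytometry. The Sry-EGFP transgene puts green fluorescent protein under regulatory sequence of Sry, the testis-determining gene of the Y chromosome, so XX and XY embryos both carried it. Each array stands for 1 pool, and whether the 3 pools of a group were collected independently is not stated, so p-values rest on pool-to-pool spread that may be technical.

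FGF9 is a secreted ligand that binds FGF receptors, which are tyrosine kinases at the cell surface, together with heparan sulfate, and the receptors signal through the RAS and MAP kinase cascade. Cells that receive the signal switch on the ETS transcription factor genes Etv4 and Etv5 and also their own brakes: Sprouty proteins, which damp receptor signalling, and DUSP6, a phosphatase that inactivates ERK. In the mouse XY gonad, Fgf9 is known to be needed for testis development, with Sox9 on the same side and the ovarian ligand gene Wnt4 on the other, and FGFR2 is the receptor known from mutants to be needed for Sertoli fate.

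Promoters from RefSeq, on the GRCm38.p6 build, were read for 7 of the 10 genes, with the promoters of a chromosome left out. The 4 promoter sequences printed here belong to the ligand, to the receptor that was lower in XY cells at E12.5 and to 2 induced genes. These 2 had the largest differences among the induced genes whose promoters were read, which do not include Spry4. Each runs 5′ to 3′ on the strand of the gene, from 250 bases before the annotated start to 20 bases after it. Capitals mark AGGAAG, a core that ETS factors bind, and ACAAAG or ACAATG, cores that SOX factors bind, on either strand. The Fgf9 stretch is chr14:58072436-58072705 on the plus strand, that of Fgfr2 is chr7:130266789-130267058 on the minus strand, that of Dusp6 is chr10:99262981-99263250 on the plus strand, and the more internal of 2 Etv5 starts gives chr16:22438349-22438618 on the minus strand.
Fgf9: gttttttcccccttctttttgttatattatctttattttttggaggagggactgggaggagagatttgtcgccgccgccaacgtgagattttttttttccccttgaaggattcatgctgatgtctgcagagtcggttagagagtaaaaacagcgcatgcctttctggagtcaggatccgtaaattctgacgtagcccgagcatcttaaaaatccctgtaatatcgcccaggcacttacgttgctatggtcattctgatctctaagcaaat
Fgfr2: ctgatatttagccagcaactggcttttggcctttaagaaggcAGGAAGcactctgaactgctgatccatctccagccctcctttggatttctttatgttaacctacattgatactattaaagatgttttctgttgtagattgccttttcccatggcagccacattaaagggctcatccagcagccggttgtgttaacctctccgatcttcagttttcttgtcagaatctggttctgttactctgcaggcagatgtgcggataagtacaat
Dusp6: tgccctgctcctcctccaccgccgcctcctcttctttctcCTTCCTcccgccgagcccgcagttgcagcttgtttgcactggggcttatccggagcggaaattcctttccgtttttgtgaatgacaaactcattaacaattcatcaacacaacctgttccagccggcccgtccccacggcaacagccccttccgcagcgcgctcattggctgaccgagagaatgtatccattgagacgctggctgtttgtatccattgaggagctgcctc
Etv5: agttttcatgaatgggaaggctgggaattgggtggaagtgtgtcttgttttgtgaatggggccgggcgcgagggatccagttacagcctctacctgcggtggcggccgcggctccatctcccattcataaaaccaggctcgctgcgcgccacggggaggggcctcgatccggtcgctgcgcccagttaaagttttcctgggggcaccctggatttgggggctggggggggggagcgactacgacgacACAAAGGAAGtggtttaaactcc
The Fgf9 stretch held none of the 3 motifs, which says only that these letters are not in this window. Fgfr2 and Dusp6 held 1 AGGAAG each, Dusp6 on the reverse strand. The Etv5 stretch held ACAAAG and AGGAAG, which overlap across the start. The other Etv5 start, both Fgfr3 starts and Spry1 held no match, and Spry2 held 1 ACAAAG. Of 32851 promoters of the same length, none from the chromosome left out, 31.8% held AGGAAG, 17.4% held ACAAAG and 11.6% held ACAATG. A match is therefore a description of these sequences and not a site.

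The arrays matched their labels. The mean over all 19 Y-linked probe sets was 6.21 to 6.56 on the log2 scale on the 6 XY arrays and 4.82 to 5.07 on the 6 XX arrays. The 5 of them called higher in XY at both days, chosen for that separation, read 3.33 to 5.17 in XX, which serves below as the range of signals without a target. The supporting cell marker Wt1 averaged 11.93 in XY and 11.98 in XX at E12.5, while 2 of 5 such markers, Lhx9 and Emx2, were called lower in XY there. Sox9 marked XY (10.16 in XY and 6.18 in XX at E12.5) and Foxl2 marked XX (7.79 in XY and 11.09 in XX at E12.5). The brightest probe sets of all 5 measured germ cell markers lay below the median probe set. Pool 2 of XX at E11.5 stood apart, with a mean of 8.52 over 7 endothelial markers where the other 11 arrays read 6.1 to 7.08, and 10.42 over 4 interstitial markers where the others read 8.05 to 9.45. Values are log2 signals, in which a step of 1 is a doubling, and levels of different probe sets are not compared because each probe set has its own brightness.

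Fgf9 was far higher in XY than in XX cells on both days at its brightest probe set. The gene lies at chr14:58070671-58112854 (GRCm38.p6), and 2 probe sets read it. At E11.5 the brightest, 1438718_at, read 12.21, 11.27 and 11.34 in the XY pools, against 5.41, 7.30 and 4.61 in the XX pools. At E12.5 it read 11.92, 12.02 and 12.03 in XY, against 6.56, 7.88 and 7.27 in XX. On neither day did the groups come near each other, and the XX pools spread more widely than the XY pools. The log2 difference of XY minus XX was 5.84 ± 0.59 (SE) at E11.5 (limma, adjusted p = 0.0039) and 4.75 ± 0.59 at E12.5 (adjusted p = 0.00097). The E11.5 call ended when only the 6 E11.5 arrays were fitted (adjusted p = 0.28, the same difference). XX pool 2 gave the highest of the 3 XX values at E11.5, and without it the difference was 6.60 (adjusted p = 0.00029), while without XX pool 3, the lowest, it was 5.25.

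The other Fgf9 probe set, 1420795_at, showed the same order of the sexes at a smaller size. It read 9.75, 7.99 and 8.01 in XY pools at E11.5, against 7.18, 6.92 and 6.95 in XX pools, and 9.29, 9.67 and 8.88 in XY at E12.5, against 7.05, 7.10 and 6.88 in XX. All XY values stood above all XX values on each day. The difference was 1.57 ± 0.41 at E11.5, which was not called (limma, adjusted p = 0.42) and was 0.98 without XY pool 1, and 2.27 ± 0.41 at E12.5, which was (adjusted p = 0.0074). Neither probe set was called between the days in either sex: in XY cells the E12.5 minus E11.5 differences were 0.38 ± 0.59 at 1438718_at and 0.70 ± 0.41 at 1420795_at. In XX cells 1438718_at differed by 1.46 ± 0.59 between the days (limma, adjusted p = 0.18). Without XX E11.5 pool 2 this was 2.23 (adjusted p = 0.039), and without XX E11.5 pool 3 it was 0.88. Fewer cells that express a gene and less RNA per cell cannot be told apart in pools such as these.

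**Figure D1:**
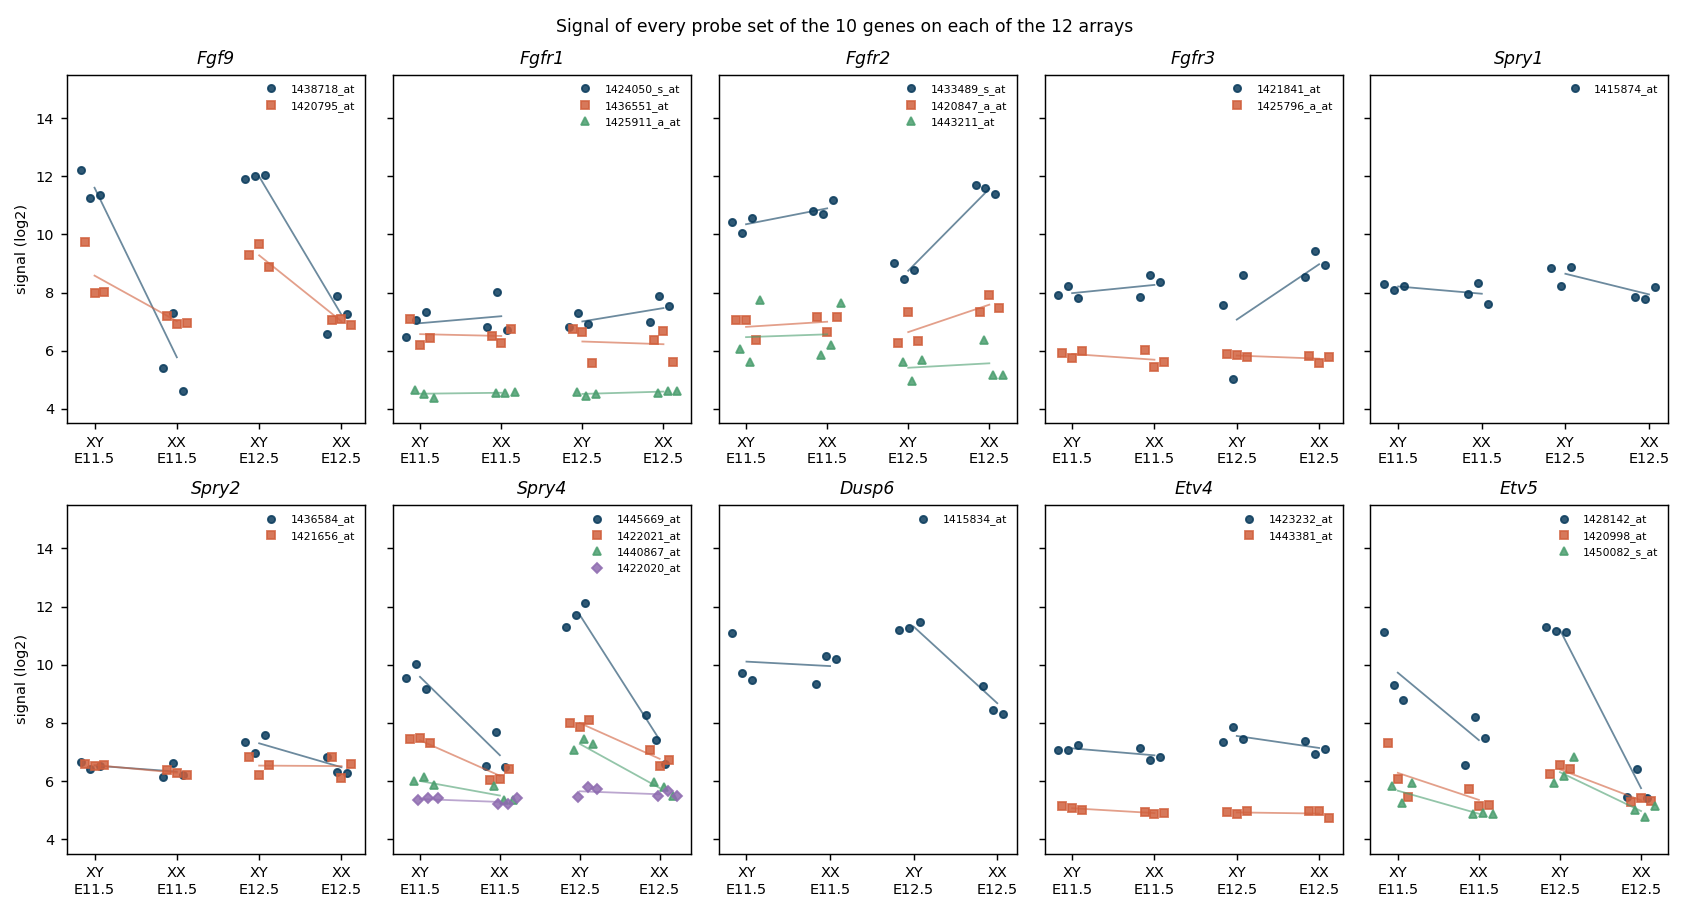
Signal (log2) of all 23 probe sets on each array, one panel per gene; points are single pools, colours and shapes are probe sets, and lines join the XY and XX means of a day. The brightest Fgf9 probe set read 11.27 to 12.21 in XY and 4.61 to 7.88 in XX, while the brightest Fgfr2 probe set was lowest in XY at E12.5.

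Of the 3 receptor genes, Fgfr2 was lower in XY than in XX cells at E12.5 and, with all arrays in the fit, neither Fgfr1 nor Fgfr3 was called in any comparison. Fgfr2 lies at chr7:130162451-130266808. Its brightest probe set, 1433489_s_at, read 10.42, 10.05 and 10.58 in XY at E11.5, against 10.79, 10.70 and 11.20 in XX. At E12.5 it read 9.01, 8.48 and 8.76 in XY, against 11.70, 11.61 and 11.40 in XX. The groups did not overlap on either day, and the gap at E12.5 was several times the spread within a group. The E12.5 difference was -2.82 ± 0.19 (limma, adjusted p = 2.9e-05), a level 7.06-fold lower in XY (95% interval 5.24 to 9.51). The E11.5 difference was -0.55 ± 0.19 and was not called (adjusted p = 0.65).

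The difference of Fgfr2 between the days was not the same in the 2 sexes. In XY cells it fell at E12.5 by 1.60 ± 0.19 on the log2 scale (limma, adjusted p = 0.0013), with all E12.5 values below all E11.5 values. In XX cells all E12.5 values stood above all E11.5 values, with a difference of 0.67 ± 0.19 that was not called (adjusted p = 0.085). The interaction of sex and day was -2.27 ± 0.27 (adjusted p = 0.0033), and Fgfr2 was the single member called for it. The sex and day comparisons share arrays, so these values are not independent of each other.

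The remaining Fgfr2 probe sets did not follow the brightest in full. At E12.5 1420847_a_at read 6.26, 7.32 and 6.34 in XY, against 7.34, 7.93 and 7.48 in XX. The difference of -0.95 ± 0.31 was not called (limma, adjusted p = 0.1). Without XY pool 2 it was -1.28 and was called (adjusted p = 0.023), and without XY pool 1 it was -0.76. The highest XY value and the lowest XX value nearly met. 1443211_at differed by -0.16 ± 0.61 at E12.5, and its groups overlapped. It read 5.60, 4.97 and 5.67 in XY there, against 6.37, 5.16 and 5.17 in XX. Some of these values lay in the range of signals without a target (3.33 to 5.17), so its difference may be too small. The brightest was ranked with the groups where the gene was high, so which difference was larger is not read as a result. On the same arrays, the E12.5 differences at the brightest and at 1420847_a_at were 1.87 ± 0.42 apart (limma, adjusted p = 0.028). The adjustment ran over all 16332 pairs of probe sets of 1 gene. The differences at the brightest and at 1443211_at were 2.66 ± 0.48 apart (adjusted p = 0.01). The first of these calls ended without any 1 of the 3 XX E12.5 pools and without XY E12.5 pool 2 or 3 (adjusted p from 0.054 to 0.095). FGFR2 has splice forms with different ligand preferences, and which exons each probe set reads was not analysed here.

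Fgfr3 (chr5:33721724-33737068) read 7.58, 5.01 and 8.62 at 1421841_at in XY at E12.5, against 8.53, 9.44 and 8.95 in XX. One XY pool was far below the others and one reached into the XX range, so the difference of -1.90 ± 0.72 was not called (limma, adjusted p = 0.16), without XY pool 2 it was -0.87, and without XY pool 3, the highest, it was -2.68 and called (adjusted p = 0.044). The other Fgfr3 probe set, 1425796_a_at, stayed between 5.43 and 6.04 on all 12 arrays. Fgfr1 (chr8:25518759-25575718) gave sex differences from -0.46 to 0.09 over its 3 probe sets and both days, none called, and all overlapped. Its brightest, 1424050_s_at, read 6.81, 7.29 and 6.92 in XY at E12.5, against 6.99, 7.87 and 7.54 in XX. Its dimmest, 1425911_a_at, read 4.38 to 4.66 on all 12 arrays, which is within the range of the Y-linked probe sets in XX cells.

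Among the Sprouty genes, which encode inhibitors of receptor tyrosine kinase signalling, Spry4 separated the sexes most widely. Spry4 lies at chr18:38586247-38601347 and has 4 probe sets. The brightest, 1445669_at, read 9.55, 10.04 and 9.16 in XY at E11.5, against 6.51, 7.68 and 6.47 in XX. At E12.5 it read 11.31, 11.72 and 12.11 in XY, against 8.26, 7.40 and 6.58 in XX. XY stood above XX on both days, with a wider gap at E12.5. The differences were 2.70 ± 0.46 at E11.5 (limma, adjusted p = 0.1) and 4.30 ± 0.46 at E12.5 (adjusted p = 0.00035).

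A dimmer Spry4 probe set with a smaller spread, 1422021_at, was called at E11.5 too. It read 7.43, 7.47 and 7.30 in XY, against 6.05, 6.08 and 6.41 in XX, and the XY values lay close together above those of XX. The difference was 1.22 ± 0.15 (limma, adjusted p = 0.02) at E11.5 and 1.23 ± 0.15 (adjusted p = 0.00096) at E12.5. That E11.5 call was lost without any 1 of 7 arrays, among them XX E11.5 pools 1 and 2 and XY E11.5 pools 1 and 2 (adjusted p = 0.089 without XX pool 2 and 0.098 without XY pool 1). Another probe set, 1440867_at, differed by 0.50 ± 0.18 at E11.5 (adjusted p = 0.66) and 1.52 ± 0.18 at E12.5 (adjusted p = 0.00069). The dimmest, 1422020_at, differed by 0.10 ± 0.12 on each day.

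Among the Sprouty genes and Dusp6, Spry4 was the one called higher at E12.5 than at E11.5 in XY cells with all arrays fitted. 1445669_at rose by 2.13 ± 0.46 (limma, adjusted p = 0.024), 1440867_at by 1.28 ± 0.18 (adjusted p = 0.0032) and 1422021_at by 0.59 ± 0.15 (adjusted p = 0.049), each with all XY values at E12.5 above all XY values at E11.5. The call of 1422021_at ended under 12 of 19 alternative settings and that of 1445669_at under 4. In XX cells no Spry4 probe set was called between the days; 1422021_at differed by 0.58 ± 0.15 there (adjusted p = 0.067), and its interaction was 0.01 ± 0.22 (95% interval -0.47 to 0.49). The interaction was 1.61 ± 0.65 for 1445669_at (adjusted p = 0.28) and 1.02 ± 0.25 for 1440867_at (adjusted p = 0.082), the second of which was called under quantile normalization (0.044).

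Spry2 and Spry1 showed smaller differences. Spry2 (chr14:105891947-105896819) read 7.33, 6.97 and 7.59 at 1436584_at in XY at E12.5, against 6.81, 6.32 and 6.29 in XX. The groups did not overlap, and the difference was 0.82 ± 0.20 (limma, adjusted p = 0.035). The call ended without XX E12.5 pool 2 or 3, without XY E12.5 pool 1 or 3, with only the E12.5 arrays (adjusted p = 0.075) and with the pool number as a block (0.065). Between the days in XY cells it differed by 0.77 ± 0.20 (adjusted p = 0.054), a value called under 7 of the alternative settings. At its other probe set, 1421656_at, XY and XX overlapped at E12.5 with a difference of 0.01 ± 0.19. Spry1 (chr3:37639947-37644599), with 1 probe set, read 8.85, 8.21 and 8.88 in XY at E12.5, against 7.84, 7.77 and 8.20 in XX, where XY pool 2 and XX pool 3 nearly met. The difference of 0.71 ± 0.23 was not called (limma, adjusted p = 0.098). Without XY pool 2 it was 0.92 and was called (adjusted p = 0.036), and without XY pool 3 it was 0.59.

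Dusp6, which encodes a phosphatase specific for ERK, was higher in XY than in XX cells at E12.5 and was not called at E11.5. It lies at chr10:99263231-99267489 and has 1 probe set, 1415834_at. At E11.5 it read 11.10, 9.73 and 9.49 in XY, against 9.34, 10.31 and 10.21 in XX, and the groups overlapped. At E12.5 it read 11.20, 11.26 and 11.47 in XY, against 9.27, 8.45 and 8.31 in XX, and they were well apart. The differences were 0.15 ± 0.43 at E11.5 (limma, adjusted p = 0.95) and 2.63 ± 0.43 at E12.5 (adjusted p = 0.0043), or 6.21-fold higher in XY at E12.5 (95% interval 3.22 to 12). Within XY all E12.5 values stood above all E11.5 values (1.20 ± 0.43, adjusted p = 0.14), and within XX all stood below (-1.28 ± 0.43, adjusted p = 0.12). The interaction of 2.48 ± 0.60 was not called (adjusted p = 0.075).

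Of the induced ETS factor genes, Etv5 was far higher in XY than in XX cells at E12.5 and Etv4 was not called. Etv5 (chr16:22381313-22439570) read 11.12, 9.29 and 8.77 at its brightest probe set, 1428142_at, in XY at E11.5, against 6.54, 8.21 and 7.47 in XX. At E12.5 it read 11.29, 11.17 and 11.13 in XY, against 5.45, 6.40 and 5.41 in XX. The pools of both sexes were spread at E11.5, and at E12.5 they were tight and far apart. The differences were 2.32 ± 0.58 at E11.5 (limma, adjusted p = 0.4) and 5.44 ± 0.58 at E12.5 (adjusted p = 0.00038). As with Dusp6, all XY values were higher at E12.5 than at E11.5 (1.47 ± 0.58, adjusted p = 0.19) and all XX values were lower (-1.65 ± 0.58, adjusted p = 0.14), with an interaction of 3.12 ± 0.83 (adjusted p = 0.098).

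The dimmer Etv5 probe sets differed in the same direction. 1450082_s_at differed by 0.79 ± 0.24 at E11.5 (limma, adjusted p = 0.53) and 1.34 ± 0.24 at E12.5 (adjusted p = 0.0074). The second of these was an estimated 2.53-fold (95% interval 1.75 to 3.67). This estimate may be too small, since the XX mean of 4.96 lay in the range of the Y-linked probe sets without their target. 1420998_at differed by 1.07 ± 0.38 at E12.5 and was not called (adjusted p = 0.13), except without XY E11.5 pool 1 (adjusted p = 0.012), with only the E12.5 arrays or with array weights. Etv4 (chr11:101769747-101785310), the paralogue of Etv5, read 7.33, 7.87 and 7.45 at 1423232_at in XY at E12.5, against 7.38, 6.93 and 7.10 in XX, and the lowest XY value fell below the highest XX value. Its difference was 0.42 ± 0.17 (adjusted p = 0.21), and 1443381_at read 4.72 to 5.14 on all 12 arrays.

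Pool 1 of XY at E11.5 stood out at some of these probe sets. At no Spry4 probe set was it the highest of the 3 (9.55 at 1445669_at, where pool 2 read 10.04). Nor was it the highest at 1450082_s_at of Etv5 (5.83, where pool 3 read 5.94). Pool 1 of XY at E11.5 had the highest of the 3 values at both Fgf9 probe sets, at Dusp6 (11.10 where the others read 9.73 and 9.49) and at the brightest Etv5 probe set (11.12 where the others read 9.29 and 8.77). Its Dusp6 and Etv5 values lay just below those of the E12.5 XY pools, whose lowest were 11.20 and 11.13, so the separation of the days in XY cells was narrow at both genes. Its mean over 5 Sertoli markers was 9.51, that of the other XY E11.5 pools was 8.86 and 8.29, and that of the XY E12.5 pools was 10.68 to 11.04. The part of marker level in these values was not tested. Without this pool the interaction was called at Dusp6 (2.98, limma, adjusted p = 0.012), at 1428142_at of Etv5 (3.81, adjusted p = 0.015) and at 1420795_at of Fgf9 (1.29, adjusted p = 0.045). The rise in XY cells was called at the same 3 probe sets with a limma adjusted p of 0.026, 0.032 and 0.01. The pool was named for its high values there, so leaving it out enlarges these differences by construction. Without XY E11.5 pool 3 instead, the interaction was 2.17 at Dusp6 and 2.64 at 1428142_at, and the rise was 0.89 and 0.99. Without XY E11.5 pool 2 the interaction at 1420795_at was 0.41 and the rise 0.40.

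Counted over all 23 probe sets, 2 were called between the sexes at E11.5, both higher in XY, where 0.0678% of all probe sets were called, 0.0543% higher and 0.0136% lower. At E12.5 10 were called, 9 higher and 1 lower in XY, where 7.72% of all probe sets were, 3.92% higher and 3.81% lower. They belong to 6 of the 10 genes: Fgf9, Fgfr2, Spry2, Spry4, Dusp6 and Etv5. Between the days 4 were called in XY cells, 3 of Spry4 higher and 1 of Fgfr2 lower, where 6.16% of all probe sets were called, 3.18% higher and 2.98% lower. In XX cells 0 were called by limma (3.11% of all), with 5 at an unadjusted p under 0.05 and 0 with the pool number as a block. The interaction was called at 1 (1.75% of all). Groups without overlap between the sexes were found at 10 of the 23 probe sets at E11.5 (10.1% of all) and 13 at E12.5 (28.6% of all), and between the days at 10 in XY cells (26.8% of all) and 6 in XX cells (26.6% of all), the last close to the share of all probe sets. The median of the 23 sex differences was 0.21 at E11.5 and 0.42 at E12.5, where that of all probe sets was 0.05 and 0.

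**Figure D2:**
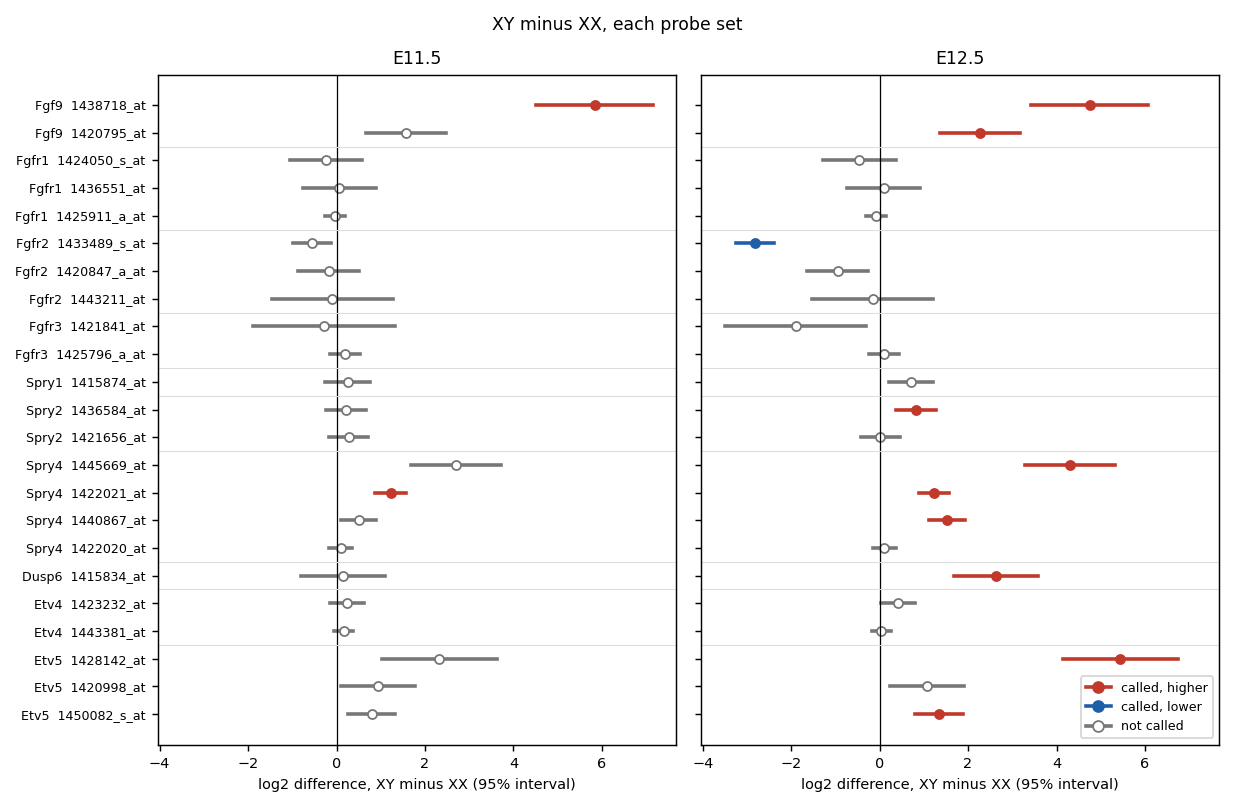
Log2 difference of XY minus XX with its 95% interval for each of the 23 probe sets at E11.5 (left) and E12.5 (right); filled red and blue points were called higher and lower, open grey points were not called. At E12.5 9 probe sets stood higher in XY and Fgfr2 1433489_s_at stood lower by 2.82, while probe sets of 1 gene differed widely in size.

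**Figure D3:**
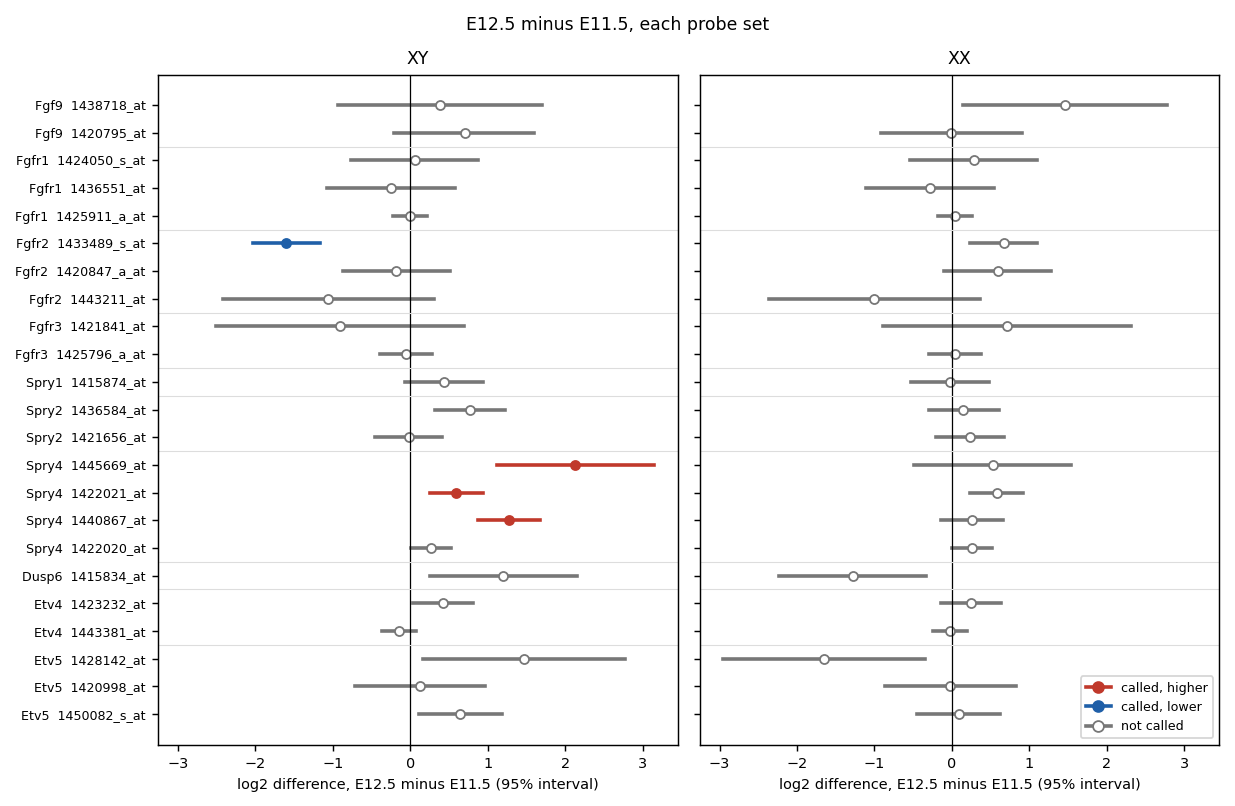
Log2 difference of E12.5 minus E11.5 with its 95% interval for each probe set in XY (left) and XX (right) cells, marked as in the plot of sex differences. In XY 3 Spry4 probe sets rose and 1433489_s_at of Fgfr2 fell, and Dusp6 and the brightest Etv5 probe set had means of opposite sign in the 2 sexes without a call.

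The size of a difference depended on which probe set of a gene was read. Among the 13 pairs formed by the brightest probe set of a member gene and each other one, the E12.5 sex difference differed between the 2 at 8 pairs (limma on the per-array difference, adjusted p under 0.05), where 5.74% of the 16332 pairs of all genes did. The brightest was ranked by its mean over all 12 arrays, which include the group where a gene was high, so which of the 2 had the larger difference is not read as a result. The 8 were 3 pairs of Spry4, 2 of Etv5, 2 of Fgfr2 and that of Fgf9. For Etv5 the gap was 4.37 ± 0.48 against 1420998_at (limma, adjusted p = 0.00071). The gap against 1450082_s_at may be too large, because the difference at 1450082_s_at may be too small, and is not read. For Spry4 it ran from 2.78 ± 0.42 against 1440867_at to 4.20 ± 0.47 against 1422020_at. 1422020_at read 5.21 to 5.78 on all 12 arrays, and 1420998_at of Etv5 read 5.28 to 5.42 in XX at E12.5. Both lay just above the range of signals without a target, whose highest was 5.17, so the gaps against them may also be too large. The Fgf9 pair had a gap of 2.48 ± 0.62 (adjusted p = 0.042), which ended under 10 of 18 alternative settings. At E11.5 0 of the 13 pairs were called by limma, where 0.0367% of all pairs were, with 6 at an unadjusted p under 0.05 and 2 called without XX E11.5 pool 2, and the Fgf9 pair had a gap of 4.27 there (adjusted p = 0.06). Between the days in XY cells 1 of the 13 pairs was called, 1445669_at against 1422020_at of Spry4 (gap 1.86 ± 0.47, adjusted p = 0.038), where 7.54% of all pairs were. That call ended with quantile normalization (adjusted p = 0.052) and without any 1 of 6 arrays, namely XY E11.5 pools 1 and 3, XX E12.5 pool 2 and each XY E12.5 pool (up to 0.13). All 12 samples had been amplified in 2 rounds before labelling, and the distance of each probe set from the 3′ end of its transcript was not analysed here. Over the 12 arrays the dimmer probe sets of Spry4 correlated with the brightest at 0.94, 0.91 and 0.52 (Pearson's r), those of Etv5 both at 0.81 and that of Fgf9 at 0.88. Those of Fgfr2 did so at 0.57 and 0.32 and that of Spry2 at 0.44. The values were negative at Fgfr3 (-0.42), Fgfr1 (-0.32 and -0.16) and Etv4 (-0.03). The dimmer probe sets behind -0.16 and -0.03 stayed within the range of signals without a target. These points share the 4 groups and the values are a description.

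Averaging the probe sets of each gene left the sex difference at E12.5 called for Fgf9 (3.51 ± 0.39), Etv5 (2.62 ± 0.30), Dusp6 (2.63 ± 0.42), Spry4 (1.79 ± 0.17) and Fgfr2 (-1.31 ± 0.23), with limma adjusted p-values from 6.1e-05 to 0.0034, and not for Spry2. At E11.5 the means of Fgf9 (3.70 ± 0.39, adjusted p = 0.0045) and Spry4 (1.13 ± 0.17, adjusted p = 0.045) were called. In this fit the interaction was no longer called at Fgfr2 (-1.03 ± 0.32, limma, adjusted p = 0.11). It was called at Dusp6 (2.48 ± 0.59, adjusted p = 0.039), which has 1 probe set, so that averaging left its values unchanged. The Dusp6 interaction was also called with the brightness filter (adjusted p = 0.041) and with array weights (0.033).

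The wider pathway was read from 6 further lists, in which a gene counts as called in a direction where at least 1 of its probe sets was. At E11.5 0 of their 86 measured genes were called between the sexes by limma (12 at an unadjusted p under 0.05 in at least 1 probe set), where 0.0667% of all named genes were called higher and 0.0167% lower. At E12.5 7.1% of all named genes were called higher and 6.87% lower in XY. Of 21 other FGF ligand genes 1 was higher and 2 were lower. Fgf13, whose product stays inside the cell and does not act through FGF receptors, averaged 11.26 in XY and 6.70 in XX at its brightest probe set (difference 4.55 ± 0.43, adjusted p = 0.00017). Fgf11, of the same intracellular group, was lower (-2.06 ± 0.42), as was Fgf3 at a dimmer probe set (-0.44 ± 0.11). The brightest probe sets of 16 of the 21 ligand genes lay below the median probe set. The median E12.5 difference over the brightest probe sets was 0.01 for these ligands, 0.08 for receptors and coreceptors, -0.48 for heparan sulfate enzymes, 0.20 for relay genes, 0.33 for other feedback genes and 0.52 for other response genes, where that of all named genes was 0.

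Of 14 further receptor and coreceptor genes 3 were higher and 2 lower in XY at E12.5. Fgfrl1, a receptor-like gene whose product lacks the kinase domain, was higher at both of its probe sets, with the dimmer, 1451912_a_at, averaging 9.23 in XY and 7.45 in XX (1.79 ± 0.17, limma, adjusted p = 0.00015). The glypican genes Gpc6 (2.88 ± 0.50) and Gpc1 (0.97 ± 0.13) were higher, and the syndecan genes Sdc1 (-1.61 ± 0.19) and Sdc2 (-1.43 ± 0.37 at 1448545_at, not at its brightest probe set) lower. Both families carry heparan sulfate at the cell surface.

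Of 15 heparan sulfate enzyme genes 2 were higher and 4 lower in XY at E12.5. Sulf1, an extracellular sulfatase that removes sulfate groups from heparan sulfate, averaged 9.05 in XY and 12.61 in XX at its brightest probe set, a difference of -3.56 ± 0.24 (limma, adjusted p = 2.7e-05). At E11.5 the sexes had averaged 12.50 in XY and 12.34 in XX, and the interaction was called (-3.72 ± 0.34, adjusted p = 0.0008). Ext1, a polymerase of the chain, was lower (-1.70 ± 0.25), as were the sulfotransferase genes Hs6st2 (-1.82 ± 0.48) and Hs3st1 (-1.14 ± 0.30). Glce, the epimerase of the chain, was higher (1.56 ± 0.23), as was Extl2 at its dimmer probe set (1.17 ± 0.31).

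Of 13 measured relay genes between receptor and ERK 2 were higher and 2 lower in XY at E12.5. Map2k1, which encodes the ERK kinase MEK1, averaged 12.34 in XY and 10.70 in XX (1.64 ± 0.23, limma, adjusted p = 0.0018), and Plcg1 was higher by 0.45 ± 0.12. The adaptor gene Grb2 was lower (-0.65 ± 0.16), as was Araf at 1 of its 5 probe sets (-1.87 ± 0.47). A further 6 relay genes of the list are not analysed here.

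Of 13 other feedback genes 2 were higher and 1 lower in XY at E12.5. Dusp4, a phosphatase gene of the same family as Dusp6, averaged 11.24 in XY and 7.84 in XX (3.40 ± 0.43, limma, adjusted p = 0.001), after 10.48 in XY and 9.44 in XX at E11.5. Dusp1 was higher by 1.63 ± 0.39, and Flrt2 was lower by 1.79 ± 0.23 at 1 of its 3 probe sets. Between the days in XY cells, where 6.08% of all named genes were called higher and 4.67% lower, Il17rd, which encodes the FGF antagonist Sef, rose by 1.40 ± 0.31 (adjusted p = 0.028) and Dusp9 rose at 2 of 3 probe sets, while Spred1, Spred2, Flrt2 and Cbl each fell at 1 probe set that was not the brightest of the gene. Of 10 other response genes 3 were higher in XY at E12.5 and 0 lower: Egr1 (1.5 ± 0.31), Egr2 at the dimmer of its probe sets (2.25 ± 0.45) and Junb (0.94 ± 0.22). Growth factors other than FGFs also induce these 3 genes.

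**Figure D4:**
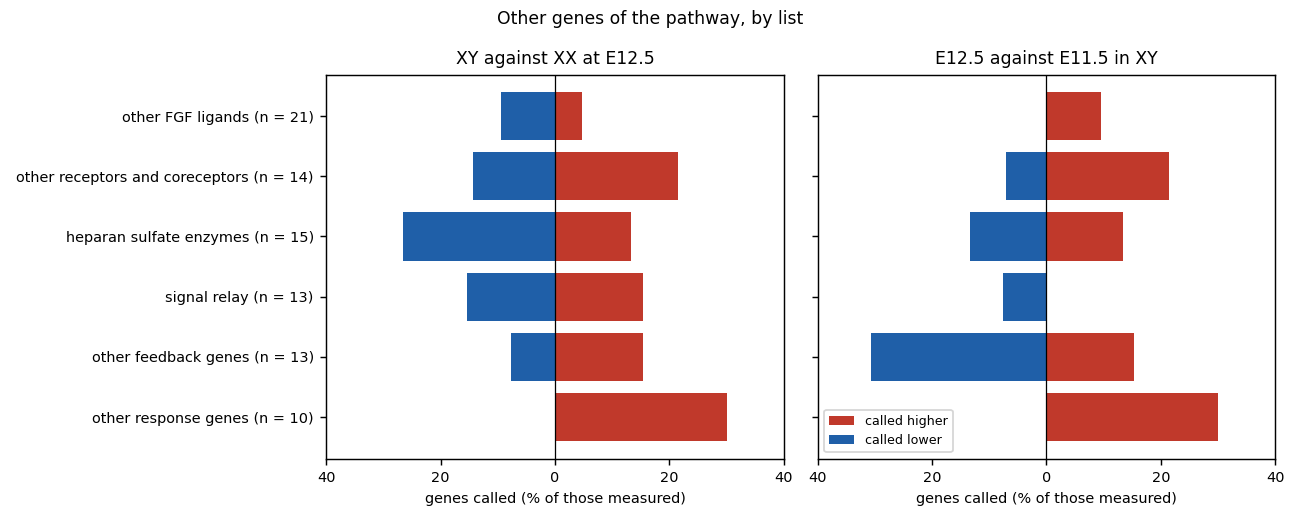
Percentage of the measured genes of each pathway list called higher (red, right) or lower (blue, left), for XY against XX at E12.5 and for E12.5 against E11.5 in XY cells; n is the number of genes measured. Of the 10 other response genes 3 were called higher in both comparisons and 0 lower.

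Levels of other markers moved with these comparisons. At E12.5 the mean over 4 proliferation genes was 10.27 to 10.56 in the XY pools and 7.18 to 8.73 in the XX pools, with 3 of the 4 genes called higher in XY. The mean over 6 macrophage and leukocyte markers was 7.47 to 7.98 in XY and 6.98 to 7.28 in XX, with 1 of 6 called. Endothelial markers read 6.24 to 7.08 in XY and 6.10 to 6.60 in XX with 0 of 7 called by limma and 0 at an unadjusted p under 0.05, and interstitial markers 8.05 to 8.79 in XY and 8.37 to 8.80 in XX with 1 of 4 called in each direction. Of erythroid markers 1 of 3 was called higher in XY, and 0 of 4 steroidogenic and 0 of 3 mesonephric markers were called by limma, with 2 and 1 of them at an unadjusted p under 0.05. Spry4 and Fgfr2 were called between the days in XY cells. There the proliferation mean was 10.27 to 10.56 at E12.5 and 8.47 to 9.43 at E11.5, with 1 of 4 genes called (Aurka). The macrophage and leukocyte mean was 7.47 to 7.98 at E12.5 and 6.62 to 7.03 at E11.5, with 1 of 6 called (Fcgr3). Of 4 steroidogenic genes 2, Star and Cyp11a1, were called lower at E12.5 and 0 higher. The median difference over the brightest probe sets of the 4 was of the other sign, at 0.28. Between the sexes at E11.5 the macrophage and leukocyte mean was 6.62 to 7.03 in XY and 7.09 to 8.43 in XX, with 0 of 6 called by limma and 3 at an unadjusted p under 0.05. The part of these cells or of cell division in the values of the FGF genes was not tested.

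The probe sets whose pattern over the 12 arrays was most like that of 1438718_at of Fgf9 were 2 of Scrn1 (Pearson's r of 0.956 and 0.953) and 1 each of Eif2s3y (0.952), Slc26a7 (0.94) and Sox9 (0.939). The arrays share the 4 groups, so any gene that separates the sexes on both days ranks high, as the Y-linked Eif2s3y does, and no p-value is given. Among the members the brightest Spry4 and Etv5 probe sets had an r of 0.90 and 0.85 with Fgf9, and 1433489_s_at of Fgfr2 had -0.76. Wnt4, the ovarian ligand gene, averaged 9.56 in XY and 11.80 in XX at E12.5, and 10.69 in XY and 11.45 in XX at E11.5.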

How the data were processed

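Total RNA from flow-sorted pools was amplified in 2 rounds, labelled with biotin and read on Affymetrix mouse arrays, following the protocols in the labels and the platform named in the annotation. The authors deposited 1 table with 1 value per probe set and array, taken as log2 because a 16-bit scanner allows a base of at most 2.15 for the highest value of 14.45. How probes were summarised and normalized is not given in the sources used here. Of 45037 probe sets, 798 were blank on all arrays and 1 on some, which left 44238. Array medians were 6.494 to 6.592. The number of arrays limits the precision. Symbols came from the probe table of the platform, updated by Entrez identifier through RefSeq (GRCm38.p6) at 34126 probe sets; 34328 named 1 gene, 850 several and 9060 none.

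Group means were fitted with limma 3.58.1 (lmFit, eBayes; R 4.3.3) over all 12 arrays, with 8 residual and 2.11 prior degrees of freedom. All p-values are two-sided and from limma, with calls below 0.05 after Benjamini-Hochberg adjustment across all probe sets. Probe sets of 1 gene were compared by the same fit on per-array differences (16332 pairs). Folds are 2 raised to the log2 difference. The fits were tested on simulated data. Named were all probe sets of the 10 genes, called genes of 6 pathway lists, marker genes, and the 5 probe sets most like Fgf9. The members, lists and markers were chosen with earlier results of these data known. Alternatives were a brightness filter, a mean-dependent variance prior, median centring, quantile normalization, array weights, the pool number as a block, the compared arrays alone, 1 or averaged probe sets per gene, a log2 minimum of 1 and leaving out each array. Figures were drawn with matplotlib 3.10.9.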

Additional observations from a re-analysis of the deposited data

Results flagged for a closer look

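The brightest Fgfr2 probe set, 1433489_s_at, differed between the sexes in its change from E11.5 to E12.5: the interaction of sex and day was -2.27 ± 0.27 (limma, adjusted p = 0.0033), a fall in XY cells beside a difference of opposite sign in XX cells that was not called. The probe set kept its call under the 18 alternative settings run on it, with values from -2.42 to -2.11. The mean of the Fgfr2 probe sets was not called (-1.03 ± 0.32, adjusted p = 0.11). The other Fgfr2 probe sets were not called for it, at -0.77 ± 0.44 and -0.06 ± 0.87.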

How the results depend on the processing

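Of 26 probe set and pair results that were called, 18 kept their call under every setting run for them, and no called result changed sign. Another 21 results were called only under some other setting, and of 133 never called, 50 changed sign under a setting, the largest at a log2 difference of 0.91. With each array left out in turn, the count of member probe sets called ran from 1 to 2 for the sexes at E11.5, 9 to 12 at E12.5, 2 to 5 for the days in XY, 0 to 1 in XX and 1 to 4 for the interaction. For pairs it ran from 0 to 2, 6 to 9, 0 to 3, 0 to 1 and 0 to 1 in the same order. The E11.5 count was 0 with only the arrays compared and 1 with 1 probe set per gene. With 1 probe set per gene 6 were called at E12.5, and with probe sets averaged 5 at E12.5 and 2 between the days in XY. The interaction count was 2 with the brightness filter, quantile normalization, array weights or 1 probe set per gene. The brightness filter, which leaves fewer probe sets, gave 2 pairs at E12.5 and 0 between the days in XY. At E11.5 1 pair was called with quantile normalization, the mean-dependent prior or array weights. Between the days in XY 2 pairs were called with that prior or array weights, and for the interaction 1 with array weights. The causes were not tested.

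The deviations of same-numbered pools from their group means correlated from -0.4 to 0.23, above 0.1 at 4 of 18 pairs. Pools of different number were not compared, so these values cannot decide whether a number marks a shared litter or day. With the pool number as a replicate block, 1 member probe set was called at E11.5, where 1422021_at of Spry4 had an adjusted p of 0.061 (limma), and 9 at E12.5, where 1436584_at of Spry2 was lost (0.065), 3 between the days in XY, 0 in XX and 1 for the interaction, with 2 pairs called between the days in XY.

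With 3 arrays a group, what could be called was limited by the spread of each probe set between pools and not by size alone. Of the 23 probe sets 13 had a mean above the median of all, and at the dimmest an estimated fold may be too small.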
